A study of Mus musculus with 8 samples.

Results

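The genes described are the splicing factors and snRNP proteins of TH-MYCN mouse neuroblastoma: 11 SR genes (Srsf), 22 hnRNP genes and 21 genes of the snRNP class, which here takes the Snrp, Sf3a and Sf3b symbols. They were picked by symbol alone, as every listed gene whose name begins with Srsf and a digit, Hnrnp, Snrp, or Sf3a or Sf3b and a digit. This gave 54 of 17488 listed genes, 51 of them protein coding and 3 annotated as processed pseudogenes (Hnrnpa1l2-ps, Hnrnpa1l2-ps2 and Snrpert). Of 57 symbols that fit the rule in the GENCODE M21 annotation, Snrpn, Snrp1c-ps1 and Snrp1c-ps2 are not analysed here.

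The 8 animals were homozygous TH-MYCN mice, in which a tyrosine hydroxylase promoter drives human MYCN in cells of the sympathetic lineage and which develop neuroblastoma in the abdomen. All 8, controls included, carry the transgene. Treatment began at a tumour size of 200 to 300 mm3 on ultrasound, at an age near 6 weeks. Then 4 mice received panobinostat, an inhibitor of histone deacetylases, in 2 doses of 5 mg/kg given 24 h apart, and 4 mice received vehicle on the same schedule. Tumours were taken 4 h after the second dose, and RNA of the whole tumour, stroma included, was sequenced in 1 library per mouse.

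An intron is removed by the spliceosome, which is built from small nuclear RNAs (snRNAs) and their proteins. Sm proteins form the ring around most of these RNAs, U1 snRNP pairs with the 5′ splice site, and U2 snRNP, with its SF3a and SF3b subcomplexes, pairs with the branch point. SR proteins bind exons and mostly favour the use of nearby splice sites, while hnRNP proteins coat nascent transcripts and often repress exons, so the balance of both classes shapes alternative splicing. Many SR and hnRNP genes can include an exon that sends their own transcript to nonsense-mediated decay, and these forms are part of the gene-level values given here. HNRNPA1, HNRNPA2B1 and PTBP1 are known as targets of MYC in human glioma.

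Levels are CPM, read counts scaled to the authors' effective size of each library, and log2 changes are panobinostat minus vehicle on the deposited scale, which adds 0.5 to each read count. Read totals over the listed genes were 18664066 to 22235545 in panobinostat libraries and 22055658 to 23830026 in vehicle libraries, so that 1 CPM stood for 19.3 to 22.6 reads. Panobinostat libraries 3 and 4 had the highest levels of adrenal cortex markers, library 3 also of kidney markers and library 4 also of liver and pancreas markers. Vehicle library 4 stood apart from its group in many splicing genes. Calls among the 54 genes that changed without these libraries are named. Library numbers are names in the order of deposit and pair nothing.

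The promoters of 4 genes are shown because they span the results: Srsf6 had the largest fall, Hnrnpr the smallest adjusted p of the hnRNP genes, Sf3a3 belongs to the U2 subcomplex in which every gene fell, and Hnrnpf had the smallest change. Each is the 250 bases before the RefSeq start in build GRCm38.p6, plus strand, at chr2:162931258-162931507 for Srsf6, chr4:136310692-136310941 for Hnrnpr, chr4:124714611-124714860 for Sf3a3 and chr6:117900090-117900339 for Hnrnpf. Capitals mark GGGCGG (GC box), CCAAT and CCGGAAG (the type of site ETS factors bind), on either strand, each of which could overlap another match.
Srsf6: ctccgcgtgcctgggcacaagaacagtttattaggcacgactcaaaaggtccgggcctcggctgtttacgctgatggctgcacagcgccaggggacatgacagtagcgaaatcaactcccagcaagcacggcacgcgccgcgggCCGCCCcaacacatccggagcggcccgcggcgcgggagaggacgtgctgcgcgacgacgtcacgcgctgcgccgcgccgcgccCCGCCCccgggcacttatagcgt
Hnrnpr: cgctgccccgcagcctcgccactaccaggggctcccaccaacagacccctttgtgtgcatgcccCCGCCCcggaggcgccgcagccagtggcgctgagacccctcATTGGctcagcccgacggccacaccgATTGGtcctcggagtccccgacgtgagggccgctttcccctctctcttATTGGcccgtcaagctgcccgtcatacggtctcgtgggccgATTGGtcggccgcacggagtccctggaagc
Sf3a3: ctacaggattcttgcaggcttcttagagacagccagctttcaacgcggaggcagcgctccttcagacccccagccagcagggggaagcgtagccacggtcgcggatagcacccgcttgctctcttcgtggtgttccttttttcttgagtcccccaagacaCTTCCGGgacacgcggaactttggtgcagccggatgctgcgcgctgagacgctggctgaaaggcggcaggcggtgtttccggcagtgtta
Hnrnpf: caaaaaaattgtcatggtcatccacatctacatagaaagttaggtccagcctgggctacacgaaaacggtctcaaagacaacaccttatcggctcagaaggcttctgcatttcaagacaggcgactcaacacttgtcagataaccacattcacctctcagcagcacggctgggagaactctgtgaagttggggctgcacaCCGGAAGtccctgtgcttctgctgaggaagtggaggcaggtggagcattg

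In these windows Srsf6 held 2 GC boxes, Hnrnpr 4 CCAAT boxes and 1 GC box, and Sf3a3 and Hnrnpf 1 CCGGAAG each. CACGTG, the E-box that MYC proteins bind, was in none of the 4. A window within 100 bases of the annotated start was found for 45 of the genes, 59 windows in all. GC boxes were in 71.2% of these windows, against 32.7% of all 32851 promoter windows, and CCGGAAG was in 32.2% against 6.91%. CCAAT was in 44.1% against 33.8%, and CACGTG in 8.47% against 6.02%. The splicing genes' windows were also richer in GC, with a median of 61.6% against 52.4%, and held a median of 20 CpG against 6, and the part of this in the motif shares was not tested. Windows of genes expressed at a like level were not compared, so these shares are not shown to be particular to splicing genes. A match is a description of letters and not a bound site.

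Splicing genes were lower in panobinostat tumours across all 3 classes. Of the 54, 44 fell at an adjusted p under 0.05 (limma, adjusted over all 16157 genes tested), none rose and 10 passed in neither direction. Over all genes tested, 63.7% passed, 32.4% downwards and 31.2% upwards. Every one of the 54 log2 changes was below 0, where 50.8% of all genes were, and their median was −0.91 against −0.02 for all genes. All 54 passed the filter on low values, Snrpert through its vehicle libraries only. In 43 genes each panobinostat library lay below each vehicle library, a pattern found in 31.2% of all genes. Of the 44, 25 passed a test against a 1.5-fold change (13.5% of all genes did so downwards) and 20 were at least 2-fold lower (13.5% of all genes). These counts include the 3 pseudogenes. Of the 51 protein-coding genes 41 fell, 23 passed the test against 1.5-fold and 17 were at least 2-fold lower. In RNA of a whole tumour, fewer cells of a type and less RNA per cell cannot be told apart.

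Falls were more common among well expressed genes: of all genes at or above the level of the lowest protein-coding splicing gene, 41.1% fell, and of genes with 5 CPM in 4 libraries 37.2% fell. Other scalings gave 39 of 54 splicing genes lower with quantile normalization (36.9% of all genes), 51 with median centring (37.5%) and 41 with read totals (28.5%). Among the 51 protein-coding splicing genes, the log2 change went weakly with the vehicle level (Pearson's r −0.29, Spearman's rho −0.30) and with exon length (−0.15 and −0.11). It showed no relation to the number of annotated transcripts (0.01 and 0.01). The log2 change subtracts the vehicle level, so the first correlation shares values with itself and leans negative by construction. These correlations are across genes measured in the same 8 libraries, which are not independent replicates.

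**Figure D1:**
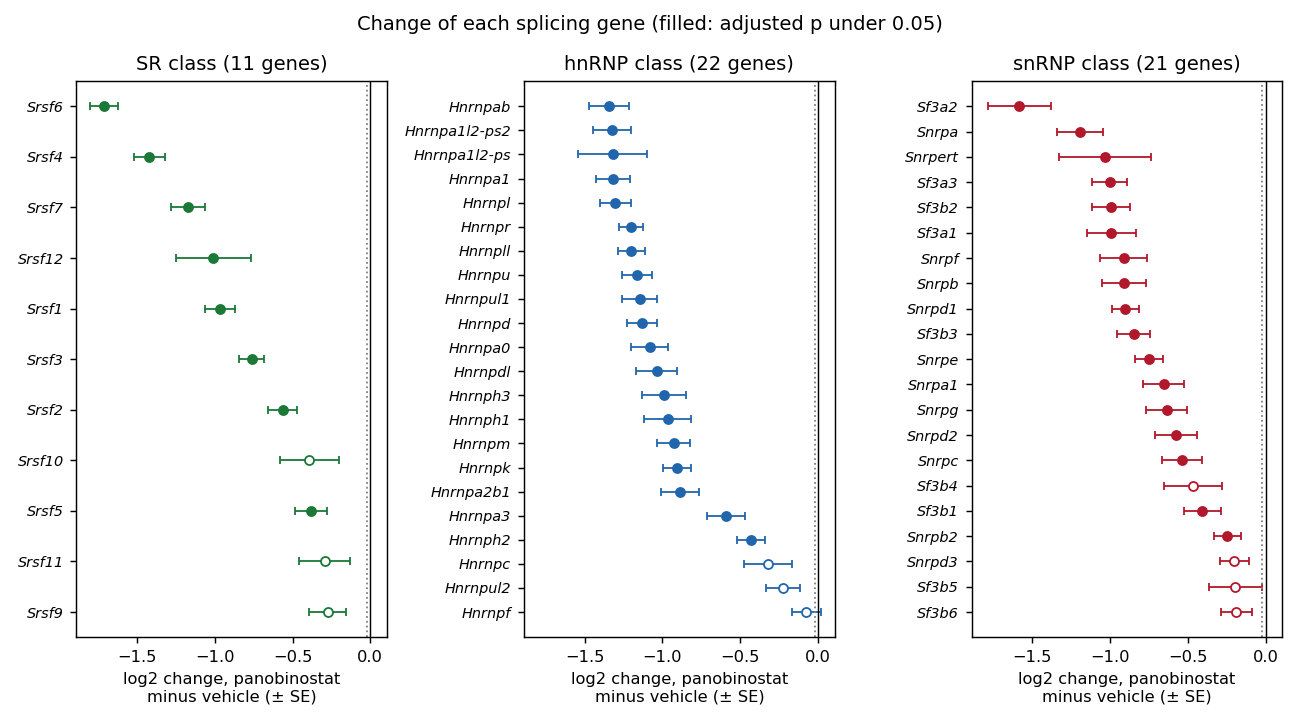
Log2 change (panobinostat minus vehicle, ± SE of the fit, 4 libraries per group) of each of the 54 genes by class, filled where the adjusted p was under 0.05. The solid line is 0 and the dotted line the median of all genes tested, −0.02; all 54 points lie left of 0.

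The SR proteins are RNA-binding proteins with an arginine- and serine-rich tail. Of 11 SR genes 8 fell, where 32.4% of all genes tested did. The class had log2 changes from −1.71 to −0.27 around a median of −0.76. Against 1.5-fold 4 passed (13.5% of all genes did so downwards). Among the 8 classical SR genes 7 fell (median −0.87), and of the other 3, Srsf10, Srsf11 and Srsf12, only Srsf12 did.

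Srsf6 (ENSMUSG00000016921, chr2:162931528-162937121, plus strand) encodes a classical SR protein and fell furthest of all 54 genes. It had 149, 127, 131 and 145 CPM in panobinostat libraries, against 451, 479, 451 and 425 CPM in vehicle libraries. Its level with panobinostat was 30.5% of that with vehicle (log2 change −1.71, SE 0.09, adjusted p 4.16e-06). No panobinostat library came near the vehicle range. Srsf4, its close relative, had 23.0, 19.4, 20.5 and 20.9 CPM with panobinostat, against 57.7, 59.1, 51.0 and 56.3 CPM with vehicle (log2 change −1.42, SE 0.10, adjusted p 8.55e-06). The groups did not overlap. Of the Srsf4 exon bases, 43% overlap those of Gm12992, and whether counting used strand is not given in the sources used here.

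Srsf7, the closest relative of Srsf3 and likewise an adaptor for mRNA export, had 140, 116, 117 and 123 CPM with panobinostat, against 246, 259, 321 and 290 CPM with vehicle. Its log2 change was −1.17 (SE 0.11, adjusted p 2.51e-05). Srsf3 had 333, 328, 317 and 327 CPM with panobinostat, against 514, 562, 560 and 582 CPM with vehicle, a log2 change of −0.76 (SE 0.08, adjusted p 4.48e-05). Both genes had separate groups, and Srsf3 varied little within either. Srsf3 has 4 near-identical genes in the annotation (at least 95% identity over at least 250 bases), of which 1 is listed, so reads may have been split among them.

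Srsf1, the founding SR protein and a known oncoprotein, had 299, 290, 291 and 310 CPM with panobinostat, against 556, 527, 670 and 586 CPM with vehicle (log2 change −0.97, SE 0.10, adjusted p 3.41e-05). Each panobinostat library held close to 51.1% of the mean vehicle level. Srsf2, also called SC35 and used as a marker of nuclear speckles, had 287, 287, 288 and 299 CPM with panobinostat, against 394, 452, 394 and 481 CPM with vehicle. Its log2 change of −0.56 (SE 0.09, adjusted p 0.00062) was smaller, though the groups again did not overlap. Srsf12, with a mean level that was 49.7% of vehicle, was the SR gene with the lowest level per exon length, at 6.74 to 10.5 CPM with panobinostat and 13.7 to 28.1 CPM with vehicle. Srsf5 fell by 0.38 on the log2 scale (adjusted p 0.0106) with overlapping groups, a call lost with quantile normalization, with read totals and without panobinostat libraries 3 and 4.

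Srsf10, a splicing repressor when dephosphorylated, Srsf11 and Srsf9 gave no call. Srsf10 had 169, 164, 163 and 162 CPM with panobinostat, against 249, 257, 248 and 136 CPM with vehicle. Srsf11 had 251, 259, 253 and 279 CPM with panobinostat, against 368, 370, 347 and 220 CPM with vehicle. In both genes 3 vehicle libraries lay above all panobinostat libraries and vehicle library 4 lay below them. Their log2 changes were −0.39 (adjusted p 0.102) and −0.29 (adjusted p 0.144), and without vehicle library 4 they were −0.61 and −0.47, past the threshold in both. Both were also called lower with library weights, and Srsf10 with median centring (−0.51). Srsf9, a short relative of Srsf1, had 63.3, 66.8, 69.9 and 70 CPM with panobinostat, against 72.9, 82.5, 72.6 and 102 CPM with vehicle (log2 change −0.27, adjusted p 0.0697). Its groups did not overlap, by a narrow margin, and it was called lower without vehicle library 1 (−0.33) or 3 (−0.33), with library weights and with median centring.

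The hnRNP genes had the largest median fall of the 3 classes, a difference that was not tested: 19 of 22 fell, and log2 changes ran from −1.34 to −0.07 around a median of −1.06. The 3 without a call were Hnrnpc, Hnrnpul2 and Hnrnpf. Against 1.5-fold 15 passed, and 12 were at least 2-fold lower. Among all genes tested 32.4% fell, 13.5% passed against 1.5-fold downwards and 13.5% were at least 2-fold lower. Of the 20 protein-coding hnRNP genes 17 fell (median −1.01), 13 passed against 1.5-fold and 10 were at least 2-fold lower. All 7 genes of the A/B and D family fell (median −1.08), as did 3 of 4 in the F/H family, 2 of 3 in the U family and 5 of the 6 others.

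Hnrnpa2b1 (ENSMUSG00000004980), whose protein also sorts RNAs into exosomes and reads m6A-marked transcripts, had the most reads of all 54. It had 1096, 1092, 1063 and 1222 CPM with panobinostat, against 1879, 2225, 2341 and 1869 CPM with vehicle, a log2 change of −0.89 (SE 0.12, adjusted p 0.000208). Hnrnpa1 (ENSMUSG00000046434), a repressor of many exons, had 633, 614, 562 and 636 CPM with panobinostat, against 1298, 1588, 1568 and 1654 CPM with vehicle. Its log2 change was −1.32 (SE 0.11, adjusted p 1.53e-05). Neither gene had overlapping groups. Per kilobase of exon, Hnrnpa1 was the higher of the pair, at 194 RPKM with panobinostat and 484 RPKM with vehicle, where Hnrnpa2b1 had 170 and 316 RPKM. Hnrnpa1 has 9 near-identical genes, 6 of them listed, and whether reads were shared among these genes was not tested. Its processed pseudogenes Hnrnpa1l2-ps2 and Hnrnpa1l2-ps had a log2 change of −1.32 each.

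Hnrnpr, an RNA-binding protein of neurons and their axons, had 132.1, 124.8, 120.6 and 129.2 CPM with panobinostat, against 276.6, 314.8, 297.1 and 278.8 CPM with vehicle (log2 change −1.20, SE 0.08, adjusted p 6.39e-06). Hnrnpll, known for the switch of CD45 isoforms in lymphocytes, had 59.6, 52.5, 52.3 and 58.1 CPM with panobinostat, against 121, 136, 127 and 126 CPM with vehicle (log2 change −1.20, SE 0.09, adjusted p 8.47e-06). Hnrnpl, its relative that binds CA-rich RNA, had 218, 205, 200 and 219 CPM with panobinostat, against 467, 551, 478 and 588 CPM with vehicle (log2 change −1.30, SE 0.10, adjusted p 1.05e-05). The lowest vehicle library of each gene lay well above the highest panobinostat library.

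Hnrnpd, also called AUF1 and known for binding AU-rich elements, had 160, 169, 174 and 185 CPM with panobinostat, against 352, 394, 344 and 420 CPM with vehicle. Its log2 change was −1.13 (SE 0.09, adjusted p 1.48e-05), with separate groups. Hnrnpab had the largest fall of the class, to 298.22, 285.08, 297.89 and 333.78 CPM with panobinostat, against 646.6, 759.4, 732.6 and 975.4 CPM with vehicle (log2 change −1.34, SE 0.13, adjusted p 3.13e-05). Its exons share 29.1% of their bases with Phykpl on the other strand. Hnrnpu, a scaffold attachment factor that binds chromatin and RNA, and its relative Hnrnpul1 fell by 1.16 and 1.15 on the log2 scale. Hnrnpa0, Hnrnpdl, Hnrnph3, Hnrnph1, Hnrnpm and Hnrnpk had log2 changes from −1.08 to −0.91, all with separate groups. Hnrnpa3 (log2 change −0.59) and Hnrnph2 (−0.43) fell less, and both lost the call with quantile normalization. Hnrnpa3 has 28 near-identical genes, of which 11 are listed.

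Hnrnpf stood nearly level: it had 146, 149, 148 and 148 CPM with panobinostat, against 147, 155, 143 and 181 CPM with vehicle (log2 change −0.07, SE 0.09, adjusted p 0.502). Its sign turned with quantile normalization (0.20, adjusted p 0.032) and with read totals (0.05), and it has 8 near-identical genes, 3 of them listed. Hnrnpul2 had 294, 307, 294 and 315 CPM with panobinostat, against 316, 310, 379 and 420 CPM with vehicle (log2 change −0.22, adjusted p 0.107). Hnrnpc, whose tetramer packs nascent transcripts and blocks uridine-rich sites, had 266.6, 265.2, 296.3 and 301.0 CPM with panobinostat, against 260.1, 342.5, 411.9 and 418.5 CPM with vehicle (log2 change −0.32, adjusted p 0.0908). Their groups overlapped, in Hnrnpc through vehicle library 1 alone. Without that library Hnrnpc was called lower, at −0.47. With median centring both Hnrnpul2 (−0.34) and Hnrnpc (−0.44) were called lower.

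**Figure D2:**
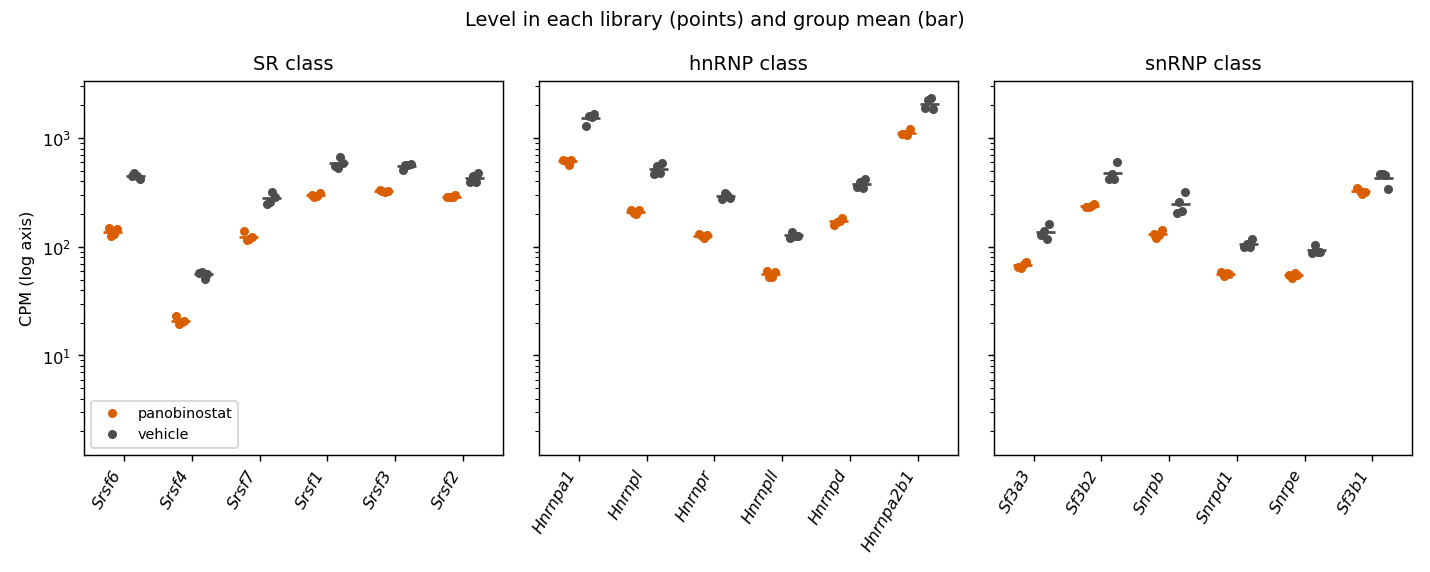
Level in CPM (log axis) of the 18 genes named by rule, 1 point per library with panobinostat left of vehicle and a bar at each group mean. Groups are apart in all but Sf3b1, where the lowest vehicle library, at 342 CPM, lies inside the panobinostat range of 309 to 345 CPM.

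Of the 21 genes of the snRNP class 17 fell, and log2 changes ran from −1.58 to −0.19 around a median of −0.75. The 4 without a call were Snrpd3, Sf3b4, Sf3b5 and Sf3b6. Against 1.5-fold 6 passed. Among all genes tested 32.4% fell and 13.5% passed against 1.5-fold downwards. Of the 20 protein-coding genes of the class 16 fell (median −0.70).

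Of the 7 genes of the Sm ring 6 fell (median −0.75). Snrpb, whose SmB protein is shared by the U1, U2, U4 and U5 snRNPs, had 132, 121, 127 and 142 CPM with panobinostat, against 206, 259, 213 and 317 CPM with vehicle (log2 change −0.91, SE 0.14, adjusted p 0.00042). Snrpd1 had 58.6, 54.4, 57.0 and 56.4 CPM with panobinostat, against 99.8, 106, 99.9 and 118 CPM with vehicle (log2 change −0.90, SE 0.09, adjusted p 2.89e-05). Snrpe had 55.5, 51.8, 57.8 and 54.6 CPM with panobinostat, against 88.5, 104, 88.8 and 88.8 CPM with vehicle (log2 change −0.75, SE 0.09, adjusted p 9.52e-05). All 3 genes had separate groups. Snrpf, Snrpg and Snrpd2 had log2 changes of −0.91, −0.64 and −0.58, and 65.9% of the Snrpf exon bases overlap Ccdc38 on the other strand. Snrpd3, which sits beside Snrpb in the ring, had 88.8, 85.0, 85.8 and 92.5 CPM with panobinostat, against 91.3, 97.6, 101 and 116 CPM with vehicle (log2 change −0.20, adjusted p 0.0893). A single vehicle library fell within its panobinostat range. With median centring Snrpd3 was called lower (−0.32).

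Among the proteins of U1, Snrpa had 53.6, 54.4, 62.0 and 60.2 CPM with panobinostat, against 109, 126, 121 and 178 CPM with vehicle, a log2 change of −1.19 (SE 0.15, adjusted p 0.000117). Snrpc, which steadies the pairing with the 5′ splice site, fell by 0.54 on the log2 scale (adjusted p 0.00458). Among those of U2, Snrpa1 fell by 0.65. Snrpb2, the paralogue of Snrpa, had 62.7, 58.2, 64.2 and 64.9 CPM with panobinostat, against 77.6, 79.1, 71.5 and 68.3 CPM with vehicle (log2 change −0.25, SE 0.09, adjusted p 0.0342). Its groups stood only just apart, and its call was lost on leaving out any panobinostat library, vehicle library 1 or vehicle library 2, with quantile normalization, read totals or no variance trend, and without panobinostat libraries 3 and 4.

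The SF3a complex, which joins U2 snRNP before it binds the branch point, fell in all 3 genes (median −1.0). Of SF3b 3 of 6 genes fell (median −0.44). Among all genes at or above the level of the lowest protein-coding splicing gene 41.1% fell. Sf3a2 had 35.9, 34.4, 42.5 and 44.9 CPM with panobinostat, against 101, 129, 85.8 and 172 CPM with vehicle, and fell furthest of the class (log2 change −1.58, SE 0.20, adjusted p 0.000149). Sf3a3 had 65.7, 63.8, 69.8 and 73.2 CPM with panobinostat, against 129, 140, 117 and 163 CPM with vehicle (log2 change −1.0, SE 0.11, adjusted p 6.71e-05). Sf3a1 fell by 0.99 on the log2 scale. In all 3 the groups were apart and vehicle library 4 was the highest of the 8.

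Sf3b2 had 231, 231, 235 and 248 CPM with panobinostat, against 417, 463, 425 and 600 CPM with vehicle (log2 change −1.0, SE 0.12, adjusted p 0.000109). Sf3b3 fell by 0.85. Sf3b1, which clamps the branch point helix and is the target of several splicing inhibitors, had 345, 327, 309 and 318 CPM with panobinostat, against 469, 469, 455 and 342 CPM with vehicle (log2 change −0.41, SE 0.12, adjusted p 0.0135). Here 3 vehicle libraries lay far above and vehicle library 4 lay inside the panobinostat range. The Sf3b1 call was lost with quantile normalization, with read totals and without panobinostat libraries 3 and 4. Sf3b4, Sf3b5 and Sf3b6 had log2 changes of −0.47 (adjusted p 0.0506), −0.19 and −0.19. Sf3b4 was called lower under 6 alternatives: a filter of 5 CPM, library weights, median centring, a pseudocount of 1 CPM, and without vehicle library 1 (−0.59) or 3 (−0.57). Sf3b6 was called lower with library weights, with median centring and without vehicle library 3 (−0.26). Whether SF3a and SF3b differ was not tested.

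Summed over each class, levels were lowest relative to vehicle for the hnRNP genes. The hnRNP sum was 5860 ± 252 CPM with panobinostat and 11541 ± 800 CPM with vehicle (mean ± SD, n = 4 each), a ratio of 0.508. The SR sum was 1925 ± 55.3 CPM with panobinostat and 3302 ± 134 CPM with vehicle, a ratio of 0.583. The snRNP sum was 1879 ± 76.4 CPM with panobinostat and 3168 ± 389 CPM with vehicle, a ratio of 0.593. All 54 together took 0.963% to 1.03% of the reads in panobinostat libraries and 1.61% to 1.78% in vehicle libraries. In no class did a panobinostat library reach the lowest vehicle library.

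**Figure D3:**
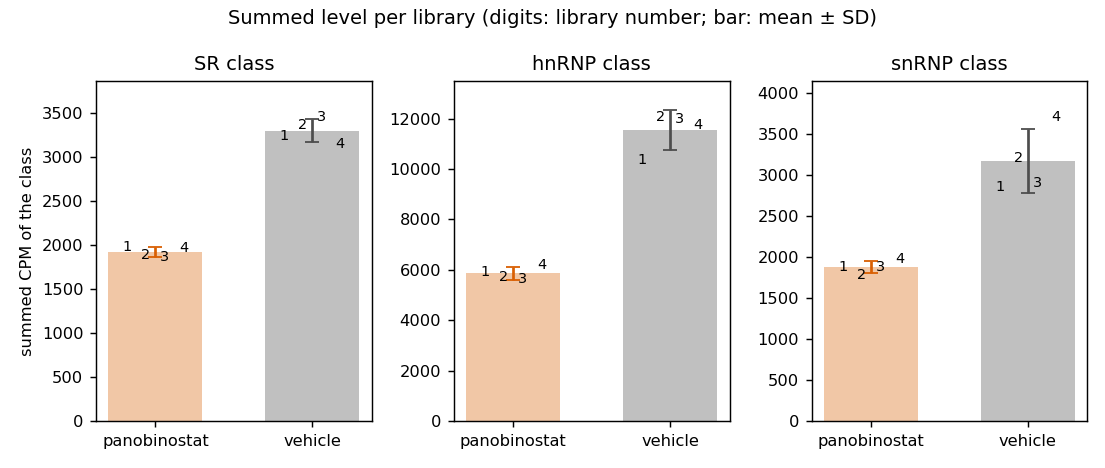
Summed CPM of each class per library; bars and error bars are the mean and SD of 4 libraries, and the digits, numbered as the libraries are, stand at each library's sum. The highest panobinostat sums are 1974, 6198 and 1973 CPM for SR, hnRNP and snRNP, and the lowest vehicle sums 3147, 10356 and 2857 CPM.

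Some related genes did not fall in proportion. A ratio of 2 genes within a library does not depend on how libraries are scaled, and 11 ratios of related genes were compared by two-sided exact permutation over 70 assignments, where the smallest p possible is 0.0286. In 8 of the 11 the groups were fully apart (exact permutation p = 0.0286, adjusted over the 11 ratios 0.0393), with 4 of 4 libraries on each side. Full separation was also frequent among single genes: of 16157 tested, 5049 had all panobinostat libraries below all vehicle libraries and 4597 had them above. The share among ratios of unrelated genes was not determined, so the count of 8 is not shown to be particular to related splicing genes. Without any 1 panobinostat library the adjusted p of the 8 lay between 0.0524 and 0.0786, past the threshold in none, while each difference kept its sign and changed little (from −0.97 to −0.91 for Snrpa over Snrpb2, from 0.90 to 0.96 for Hnrnpul2 over Hnrnpul1). Without any 1 vehicle library all 8 passed.

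The U1 protein gene Snrpa fell further than its U2 paralogue Snrpb2: their ratio was 0.855, 0.936, 0.966 and 0.928 with panobinostat, against 1.41, 1.59, 1.70 and 2.61 with vehicle, a log2 difference of −0.95 (SE 0.20). Srsf1 over Srsf9 was 4.73, 4.34, 4.16 and 4.42 with panobinostat, against 7.62, 6.39, 9.23 and 5.78 with vehicle (log2 difference −0.69, SE 0.15). Hnrnpul2 over Hnrnpul1 was 1.81, 2.06, 1.98 and 2.06 with panobinostat, against 0.993, 0.840, 1.34 and 1.06 with vehicle (log2 difference 0.92, SE 0.15). In these 3 ratios the member that gave no call or a small change gained weight against its relative. The log2 differences were 0.54 (SE 0.14) for Hnrnph2 over Hnrnph1, 0.41 (SE 0.09) for Srsf3 over Srsf7, 0.29 (SE 0.06) for Srsf4 over Srsf6 and −0.43 (SE 0.10) for Hnrnpa1 over Hnrnpa2b1.

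Ptbp2 and Ptbp1, the polypyrimidine-tract binding proteins of neurons and of most other cells, are not among the 54, though PTBP1 is also known as hnRNP I. Ptbp2 over Ptbp1 was 0.249, 0.284, 0.235 and 0.271 with panobinostat, against 0.601, 0.553, 1.03 and 0.395 with vehicle, the largest of the 11 differences on the log2 scale (−1.23, SE 0.29). Vehicle library 3 had the highest ratio, and without it the difference was −0.97. In 3 pairs no difference passed. Hnrnpll over Hnrnpl differed by 0.11 (SE 0.07, permutation p 0.171), Hnrnpdl over Hnrnpd by 0.09 (SE 0.15, p 0.6) and Srsf12 over Srsf10 by −0.62 (SE 0.35, p 0.229). With its standard error, the last does not show that the genes kept their ratio.

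**Figure D4:**
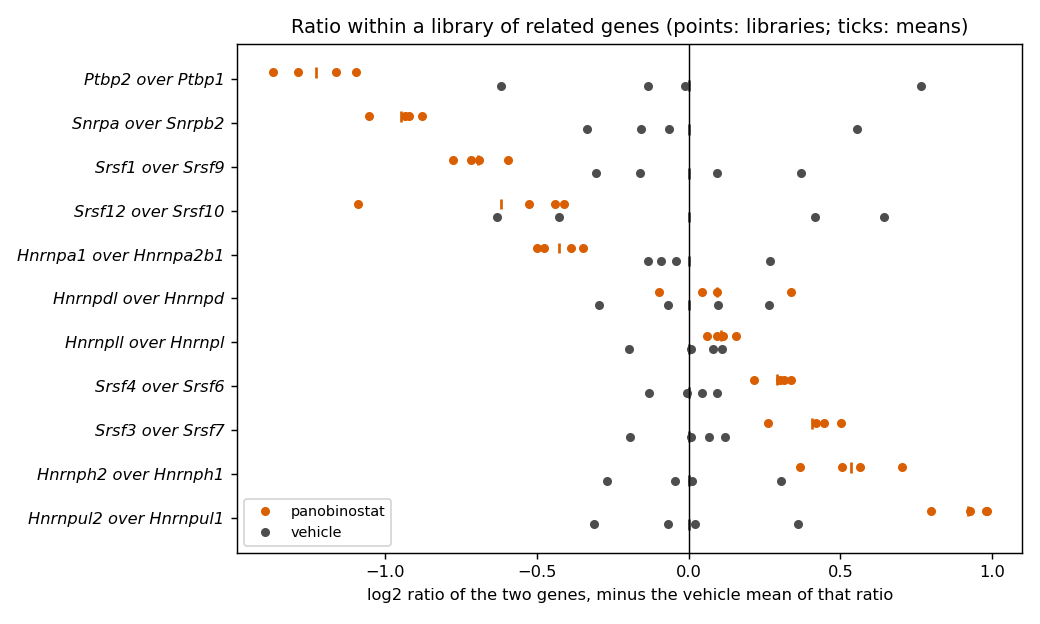
Log2 ratio within a library of 11 pairs of related genes, less the vehicle mean of that ratio; points are libraries (panobinostat above vehicle in each row) and ticks are group means. Groups overlap in Srsf12 over Srsf10, Hnrnpdl over Hnrnpd and Hnrnpll over Hnrnpl and are apart in the other 8.

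Splicing genes also varied less between panobinostat tumours. In the 51 protein-coding genes the median SD of log2 CPM was 0.089 with panobinostat and 0.202 with vehicle, and the vehicle SD was the larger in 48. Over all genes tested the median SDs were 0.156 and 0.296, and the vehicle SD was the larger in 81.7%, so this difference is not particular to splicing genes. Vehicle library 4 was the highest vehicle library in 29 of the 51 genes and the lowest in 10, where the shares over all genes were 37.7% and 26.5%. It was not alone in this: vehicle library 1 was the lowest vehicle library in 27 of the 51 (24.9% of all genes). Among panobinostat libraries, library 4 was the highest in 28 (27.8% of all genes) and library 2 the lowest in 24 (25.5%). Relative to the mean of the other 3 vehicle libraries, vehicle library 4 was lower by 0.89 on the log2 scale for Srsf10, by 0.72 for Srsf11, by 0.57 for Hnrnph1 and by 0.44 for Sf3b1. It was higher by 0.73 for Sf3a2, 0.68 for Sf3b4, 0.67 for Sf3a1, 0.60 for Sf3b5 and 0.59 for Snrpa.

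GENCODE M21 annotates a transcript subject to nonsense-mediated decay in 24 of the 51 protein-coding genes, namely 9 SR, 10 hnRNP and 5 snRNP genes. Their median log2 change was −0.98, against −0.64 in the 27 without one, and this difference was not tested. Of the 20 protein-coding snRNP genes (median −0.70) 5 have one. So do 10 of 20 hnRNP genes (median −1.01) and 9 of 11 SR genes (median −0.76). Class and annotation are therefore mixed in this difference. Whether such transcripts made up more or less of a gene's reads was not analysed here.

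The rest of the splicing machinery was followed in 10 further lists of 155 genes. Of these 154 were in the table and 152 were tested: 107 fell, 6 rose and 39 gave no call, with a median log2 change of −0.70. Over all genes tested 32.4% fell and 31.2% rose. Of all genes at or above the level of the lowest protein-coding splicing gene 41.1% fell. Genes that bind the branch point and the 3′ splice site fell in 7 of 7 (median −1.07). U2af2 and U2af1, the large and small subunits of U2AF, had log2 changes of −1.46 and −1.07, and Sf1, the branch point binding protein, −1.36. The exon junction complex, which marks joined exons, fell in 5 of 5 (median −0.72), among them Magohb at −1.22 and Casc3 at −0.72.

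Of 22 further proteins of U1, U2 and the U4/U6.U5 tri-snRNP 13 fell and none rose (median −0.58). Among all genes tested 32.4% fell, and among those at or above the level of the lowest protein-coding splicing gene 41.1%. The U5 proteins Snrnp200, the helicase that unwinds U4/U6, and Prpf8, at the core of the active site, had log2 changes of −1.04 and −0.95, and the U1 protein Luc7l −0.89. LSm genes, whose ring binds U6 or starts mRNA decay, fell in 7 of 10 and rose in none, though 2 were called higher without vehicle library 4 or with read totals and 3 with library weights. Lsm4 and Lsm3 had log2 changes of −1.31 and −1.15. Those that gave no call were Lsm1, which belongs to the decay ring alone, and Lsm10 and Lsm11 of the U7 snRNP, at 0.19, 0.32 and 0.32.

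The minor spliceosome, which removes the rare U12-type introns, had 7 of 9 genes lower (median −0.50), only 3 of them without panobinostat libraries 3 and 4 or at an adjusted p of 0.01. Snrnp35 had 7.77, 7.13, 6.81 and 6.34 CPM with panobinostat, against 18.3, 18.1, 25.5 and 27.4 CPM with vehicle (log2 change −1.65, adjusted p 5.73e-05), and Zrsr2 a log2 change of −0.64. Snrnp48 rose (0.52, adjusted p 0.0333) with overlapping groups, a call lost on leaving out any of 4 single libraries (panobinostat 1, 2 or 4, or vehicle 2), without panobinostat libraries 3 and 4 (adjusted p 0.128), with quantile normalization and with median centring. Without vehicle library 4 the list had 2 genes higher. In the Prp19 complex and the catalytic helicases 12 of 22 fell (median −0.42), with Dhx38 at −1.22 and Dhx15 at −0.87. For both lists, the share to compare is 32.4% lower among all genes tested. It was 41.1% among genes at or above the level of the lowest protein-coding splicing gene. Crnkl1 rose, with 52.6, 58.1, 57.2 and 65.7 CPM with panobinostat, against 31.5, 33.3, 30.4 and 34.2 CPM with vehicle (log2 change 0.85, adjusted p 9.01e-05).

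Genes that assemble Sm rings fell in 10 of 14 (median −0.59). The share lower was 32.4% of all genes tested, and 41.1% of those at or above the level of the lowest protein-coding splicing gene. Coil, the scaffold of Cajal bodies, had 10.5, 9.35, 9.30 and 9.20 CPM with panobinostat, against 28.5, 32.7, 23.2 and 34.0 CPM with vehicle (log2 change −1.61, adjusted p 2.58e-05). Gemin6 of the SMN complex and Prmt5, which methylates Sm proteins, had log2 changes of −0.86 and −0.74. Smn1 fell by 0.46 (adjusted p 0.0314), a call lost on leaving out any of 5 single libraries (panobinostat 1, 2 or 3, or vehicle 2 or 4), without panobinostat libraries 3 and 4 (adjusted p 0.0958) and with read totals.

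Of 11 genes for SR protein kinases and nuclear import 5 fell and none rose (median −0.42). That share of falls is near the 41.1% of all genes at or above the level of the lowest protein-coding splicing gene. Dyrk1a had a log2 change of −1.57 and Srpk1, which phosphorylates SR proteins in the cytoplasm, −0.82. Clk1 (0.31, adjusted p 0.295) and Clk4 (−0.22, adjusted p 0.193), nuclear kinases of SR proteins, gave no call, and without vehicle library 4 Clk4 was called lower at −0.35. Among SR-related and speckle genes 15 of 18 fell and 1 rose (median −0.85). Tra2b, Scaf8 and Srrm4, which drives neuronal microexons, had log2 changes of −0.96, −1.01 and −1.16. Rsrp1 rose, with 416, 398, 354 and 368 CPM with panobinostat, against 215, 170, 218 and 158 CPM with vehicle (log2 change 1.03, adjusted p 0.000104).

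The widest range was in a list of regulators of tissue-specific splicing that also holds other RNA-binding proteins, such as Elavl1, Tia1, Rbm39 and Cirbp. Of its 34 tested genes 26 fell and 3 rose (median −0.96), where 32.4% of all genes tested fell and 31.2% rose. Ptbp2 had 72.5, 69.0, 63.8 and 79.0 CPM with panobinostat, against 236, 233, 269 and 172 CPM with vehicle (log2 change −1.66, adjusted p 1.52e-05), and the neuronal Elavl3 a log2 change of −1.61. Ptbp1 fell by 0.44 (adjusted p 0.0399), a call lost on leaving out any single library except vehicle 3, without panobinostat libraries 3 and 4 (adjusted p 0.119), and with quantile normalization, read totals or no variance trend. Mbnl2, a muscleblind protein linked to mature splicing patterns, rose, with 199, 203, 182 and 165 CPM with panobinostat, against 86.5, 71.9, 71.7 and 39.4 CPM with vehicle (log2 change 1.53, adjusted p 0.000267). Ptbp3 rose (1.11, adjusted p 0.000748), with all panobinostat libraries above all vehicle libraries, and Celf2 had a log2 change of 0.38 (adjusted p 0.04). The list counted 5 or 6 genes higher in place of 3 with read totals, with quantile normalization, or without vehicle library 1 or 2.

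**Figure D5:**
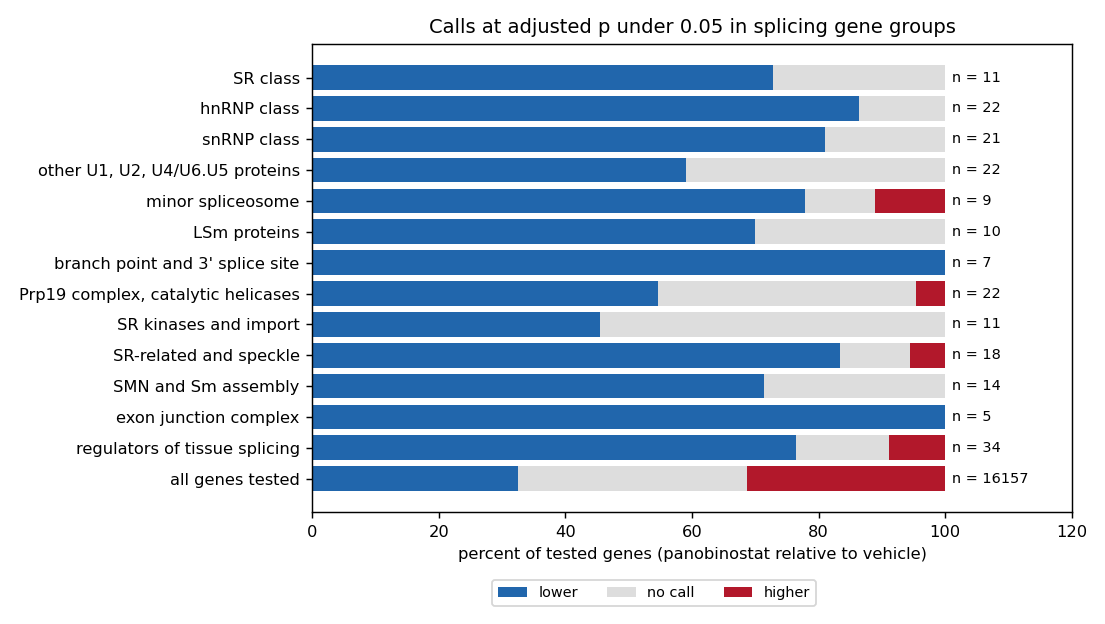
Percent of tested genes called lower, not called and called higher (adjusted p under 0.05, panobinostat relative to vehicle) in the 3 classes, the 10 further splicing lists and all 16157 genes tested, with the number tested at the right. The share of lower calls is above that of all genes, 32.4%, in each of the 13 splicing groups and the smallest, 5 of 11, is that of SR kinases and import. That smallest share is near the 41.1% lower among all genes at or above the level of the lowest protein-coding splicing gene.

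Markers of some other cells were higher with panobinostat beside these falls, and their part in the results was not tested. Over all genes tested 31.2% rose and 32.4% fell. Macrophage markers were higher in 11 of 12, with a summed level of 3389 to 6005 CPM with panobinostat and 714 to 1359 CPM with vehicle. Fibroblast and mural markers were higher in 11 of 12, at 9387 to 16776 CPM against 1794 to 5236 CPM. Schwann cell markers were higher in 5 of 8, with overlapping sums of 200 to 493 CPM against 199 to 254 CPM. Endothelial markers were higher in 2 of 7, below the share of all genes. Their sums overlapped, at 268 to 436 CPM against 82.1 to 458 CPM. Of 2 T cell markers tested 1 rose and 1 fell, and the sums of the T cell list overlapped, at 30.9 to 53.9 CPM against 11.7 to 39.3 CPM.

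Of markers of neighbouring organs few reached the level tested. All 5 tested of the adrenal cortex list rose, summing to 39.6 to 2756 CPM with panobinostat and 9.21 to 11.4 CPM with vehicle, where up to 3 of its 8 genes had 0 reads in a vehicle library. Of 8 liver markers 2 were tested and rose, and the list summed to 150 to 8956 CPM against 7.84 to 61.3 CPM. Of 8 pancreas markers 1 was tested and rose, and the list summed to 14.7 to 3021 CPM against 7.45 to 14.0 CPM. Of 2 kidney markers tested 1 rose, and the list was high in panobinostat library 3 alone, at 789 CPM, where the other panobinostat libraries had 4.17 to 8.65 CPM and vehicle libraries 0.707 to 3.41 CPM. Markers of the tumour cells' own sympathoadrenal lineage, which fit the tissue label, fell in 8 of 11, at 1120 to 1273 CPM against 2576 to 3742 CPM. Without panobinostat libraries 3 and 4, which held the highest signals of these organs, 40 of the 54 splicing genes fell (25.0% of all genes did), all 54 log2 changes stayed below 0 and their median was −0.94. The remaining panobinostat libraries still held organ signal: library 1 had 722 CPM and library 2 had 39.6 CPM of adrenal cortex markers, library 2 had 506 CPM of pancreas markers, and liver markers stood at 150 and 153 CPM. Their fibroblast and mural sums, 16776 and 15778 CPM, were above the 13763 and 9387 CPM of libraries 3 and 4. Macrophage sums were 4018 and 6005 CPM in libraries 1 and 2, against 4886 and 3389 CPM in libraries 3 and 4. The sample codes of the vehicle mice are all lower in number than those of the panobinostat mice, and no cohort or date is given in the sources used here, so a difference of that kind and the treatment cannot be told apart.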

How the data were processed

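RNA of 8 tumours was sequenced from TruSeq libraries, per the labels' protocols. CASAVA 1.8.2, TopHat2, HTSeq, limma and mm10 are named in the submitters' processing notes, without their roles; the sources used here give neither annotation nor strand setting. The authors deposited 1 table of log2 CPM, log2 of reads plus 0.5 over an effective library size; whole reads were recovered for all values within 0.001 read. The effective size was 1.02 ± 0.013 times the read total in panobinostat and 0.939 ± 0.041 times in vehicle libraries (mean ± SD, n = 4 each).

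Symbols and coordinates were matched from GENCODE M21 (mm10), with a symbol for 17228 identifiers and none for 260. The test used limma 3.58.1 (R 4.3.3; lmFit, eBayes with trend, and treat against 1.5-fold) on the 16157 genes that reached 1 CPM in 4 or more libraries; 1331 did not. Tests were two-sided with Benjamini-Hochberg adjustment and a threshold of 0.05. The fit was tested on simulated data. Each limma p-value sets a group difference against the spread between these mice, moderated over all genes. Each permutation p-value is a share of the assignments of libraries to groups. RPKM divides CPM by the merged exon length. Near-identical genes were found with blastn 2.17.0+ at 95% identity over 250 bases. Promoters are from RefSeq (GRCm38.p6).

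Values in each library are given for the 4 genes per class with the smallest adjusted p in each direction, the gene with the highest mean log2 CPM per class and Snrpb, Srsf1, Srsf2, Srsf3, Sf3b1, Hnrnpa1 and Hnrnpa2b1. From the other lists the 2 smallest adjusted p in each direction were named, and 12 genes by name. Hnrnpab, Snrpa, Snrpb2, Sf3a2, the genes with no call, LSm genes with no call and Celf2 were added after their values were seen. The genes and lists were chosen with earlier results of these data known. Alternatives, given at the end, were other filters, variance models, weights, scalings, a pseudocount, a stricter threshold and leaving out libraries.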

Additional observations from a re-analysis of the deposited data

Results flagged for a closer look

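In 9 of 174 groups of 4 libraries, 1 library lay far from the other 3 for its gene, by Dixon's test of the gap over the group's range; chance gives about 1 in 20. In panobinostat tumours these were Coil (library 1 at 10.5 CPM, the others 9.20 to 9.35), Tra2b (library 1 at 157 CPM, the others 144 to 146), Srsf2 (library 4 at 299 CPM, the others 287 to 288), U2af1 (library 4 at 82.0 CPM, the others 72.0 to 72.2) and Sf3b6 (library 4 at 55.2 CPM, the others 56.4 to 56.6). In vehicle tumours Snrpe had 104 CPM in library 2 and 88.5 to 88.8 in the others. Vehicle library 4 was the low one for the other 3 genes. It had 136 CPM for Srsf10 (the others 248 to 257), 220 CPM for Srsf11 (the others 347 to 370) and 342 CPM for Sf3b1 (the others 455 to 469).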

How the results depend on the processing

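The count of splicing genes lower stayed between 39 and 51 of 54 over all alternatives, against 44, and the median log2 change stayed below 0 in every class. Quantile normalization moved the medians most, and with it 1 splicing gene, in the hnRNP class, was higher (Hnrnpf 0.20), Srsf11 (0.0504), Hnrnpc (0.0331) and Hnrnpul2 (0.13) turned in sign, and the medians were −0.68 for all 54, −0.44 for SR, −0.80 for hnRNP and −0.56 for snRNP genes. Hnrnpf also turned with read totals (0.0454). The cause was not tested. Scaling moved the median of all genes from −0.02 to −0.12 with quantile normalization, −0.14 with median centring and 0.10 with read totals. Calls for Srsf5 were lost with quantile normalization, read totals and without panobinostat libraries 3 and 4, and that for Snrpert in the last only. The number of related pairs past the threshold ranged from 0 to 8 on leaving out single libraries and was 0 without panobinostat libraries 3 and 4, where 4 against 2 libraries allow no p below 0.0667. Hnrnpdl over Hnrnpd ranged from −0.00406 (without vehicle library 4) to 0.182. No paired analysis was possible because the labels give the groups no shared replicate numbers. Depth limited little: the lowest protein-coding gene, Srsf12, had at least 6.74 CPM in every library, and Snrpert alone lay under 1 CPM.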
